A study of Caenorhabditis elegans with 6 samples.

Results

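The genes fib-1 (fibrillarin), nol-56 and nol-58, which encode the protein core of box C/D snoRNPs, were followed in ribosome footprints of Caenorhabditis elegans larvae grown with or without cycloheximide. They were taken by symbol, 3 genes of the 20189 in the deposited table. Box C/D snoRNPs are nucleolar particles in which a guide RNA pairs with ribosomal RNA and fibrillarin adds a methyl group to the ribose of the chosen nucleotide. In yeast and human cells NOP56 and NOP58, which are related to each other, form the scaffold that holds the guide RNA and places fibrillarin on it, and a small protein, SNU13, binds the RNA first. Some of these particles, the U3 snoRNP among them, serve the cleavage of pre-rRNA and not its methylation. Fibrillarin is a widely used marker of the nucleolus, and in worms its amount goes with nucleolar size.

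All 6 libraries came from whole hermaphrodites, heterozygous for rpl-36A(P55Q) over the balancer mIn1. Both groups were labelled as the L4 larval stage. The balancer is a rearranged copy of chromosome II that suppresses recombination there, so that the mutation stays opposite a marked chromosome and heterozygotes can be picked out. The mutated gene encodes eL42 of the large ribosomal subunit, and altering its conserved proline makes ribosomes resist cycloheximide (CHX), which stops elongating ribosomes. Both groups carry this genotype, so there is no wild-type group here, and the animals hold the normal and the mutant copy together. The no CHX group has 3 libraries from animals raised from eggs for 2 days without the drug. The CHX group has 3 from animals raised from eggs for 3 days at 500 µg/ml CHX in the plates. The temperature was 23 °C throughout. Culture time went with treatment, so the effects of the drug and of the extra day cannot be told apart.

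The libraries held 1601009 to 1901815 reads. Spearman correlations over tested genes ran from 0.967 to 0.975 within a group and from 0.876 to 0.894 between groups, and no 2 libraries were near-duplicates. Nothing in the labels says that replicates were separate cultures, so the p-values cover only the variation among them, part of which may be technical. Markers of germline, oocyte, sperm, intestine, body wall muscle and epidermis were all present, as whole animals should give. The targeted gene rpl-36.A fell from 932 ± 66.4 to 658 ± 67.4 CPM (SD, n = 3 each; counts per 1000000 reads after TMM scaling).

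Footprints on all 3 genes were lower with CHX. In CPM, those on fib-1 and nol-56 fell to 40.4% and 42.6% of the level without the drug, and those on nol-58 to 52.2%. The partner gene snu-13, which is not one of the 3, fell to 52.4%. Across all 10632 genes tested, 20.0% were called lower and 22.2% higher (edgeR, quasi-likelihood; p under 0.05 after Benjamini-Hochberg adjustment).

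fib-1 (WBGene00001423, WBcel235 chromosome V, 15000653 to 15002273, minus strand) encodes the methyltransferase itself. It had 982, 863 and 1004 CPM without CHX and 376, 358 and 417 CPM with it, in replicates 1 to 3. The groups were far apart, and the highest CHX library held less than any no CHX library. The mean went from 949.7 ± 76.3 to 384 ± 30.04 CPM (SD, n = 3 each). On the log2 scale it fell by 1.31, with an SE of 0.098 and an adjusted p of 1.5e-08 from edgeR. These values rest on 1509 to 1789 reads per library without CHX and 575 to 796 with it.

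nol-56 (WBGene00010627, WBcel235 chromosome V, 10350471 to 10352978, minus strand) encodes one of the scaffold proteins. It had 705, 688 and 730.2 CPM without CHX and 287, 310.1 and 308 CPM with CHX, in replicates 1 to 3. The groups again did not overlap, and the libraries of each group lay close together. The mean went from 708 ± 21.2 to 302 ± 12.6 CPM (SD, n = 3 each). That is a log2 change of -1.23 with an SE of 0.090, and edgeR gave an adjusted p of 1.2e-08. Its coefficient of variation over libraries was 2.99% without CHX and 4.17% with it, close to the 2.88% and 4.33% that counting error alone gives at these depths. The spread of fib-1 was wider, at 8.03% and 7.83% against 2.49% and 3.83% from counting. For nol-58 it was 5.94% and 2.88% against 2.63% and 3.56%, and for snu-13 9.85% and 11.5% against 4.44% and 6.02%.

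nol-58 (WBGene00020915, WBcel235 chromosome I, 3267094 to 3269116, plus strand) encodes the other scaffold protein. It had 910.1, 812 and 839.7 CPM without CHX and 431, 454 and 451 CPM with CHX, in replicates 1 to 3. All CHX libraries lay below all no CHX libraries here too. The mean went from 854 ± 50.8 to 446 ± 12.8 CPM (SD, n = 3 each). The log2 change of -0.94, with an SE of 0.090, was the smallest of the 3 (adjusted p = 3.2e-07, edgeR).

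snu-13 (M28.5 in the table, WBGene00010896, WBcel235 chromosome II, 10658027 to 10658626, minus strand), named through RefSeq, encodes the small RNA-binding protein of the particle. It had 290.5, 271 and 329 CPM without CHX and 138, 154 and 174 CPM with CHX, in replicates 1 to 3. The mean went from 297 ± 29.2 to 155 ± 17.9 CPM (SD, n = 3 each), or by -0.93 in log2 units with an SE of 0.11 (adjusted p = 4.9e-06, edgeR). The 4 core genes were thus all called lower, and none had overlapping groups. Over all tested genes, 24.7% had every CHX library below every no CHX library.

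**Figure D1:**
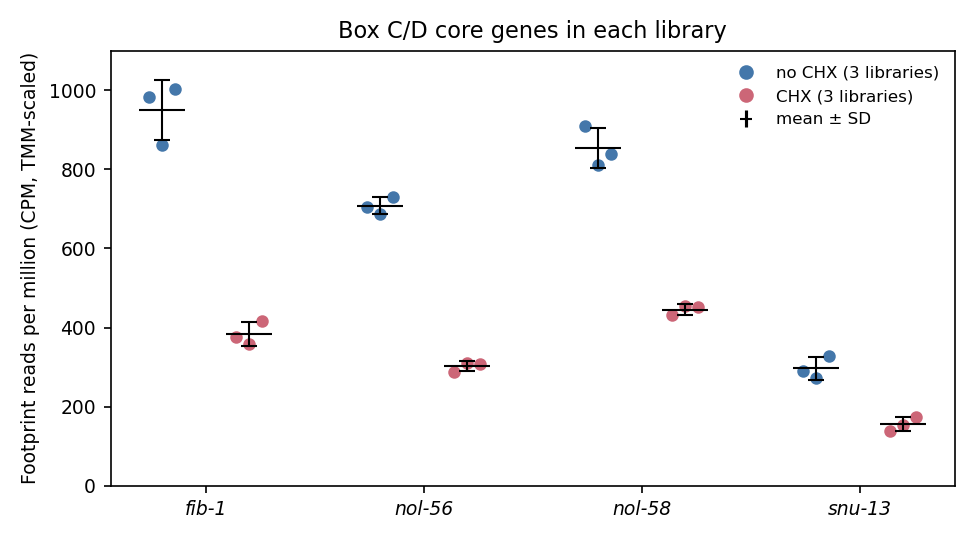
Footprint level of fib-1, nol-56, nol-58 and snu-13 in each library, in CPM (TMM-scaled), for 3 no CHX libraries (blue) and 3 CHX libraries (red), with mean and SD in black. For each gene the CHX points lie below all no CHX points, as for fib-1 with 358 to 417 CPM against 863 to 1004.

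The falls were large among the more abundant genes. Of 2122 genes with a mean of at least 100 CPM, 19 had a lower log2 fold change than fib-1, 34 a lower one than nol-56 and 91 a lower one than nol-58. In that abundant class 38.6% of genes were called lower and 20.2% higher, with a median log2 fold change of -0.16, against 0.03 over all tested genes. Together the 3 genes took 0.250%, 0.231% and 0.249% of all reads without CHX, in replicates 1 to 3, and 0.113%, 0.113% and 0.118% with it. In whole animals, fewer cells of a type and less translation per cell cannot be told apart. As no mRNA libraries were used here, a change in message and a change in its translation look alike. CPM values are shares of a library, so they do not give the total amount of translation. Nor do the counts separate footprints of ribosomes stopped by CHX from those of moving ones.

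**Figure D2:**
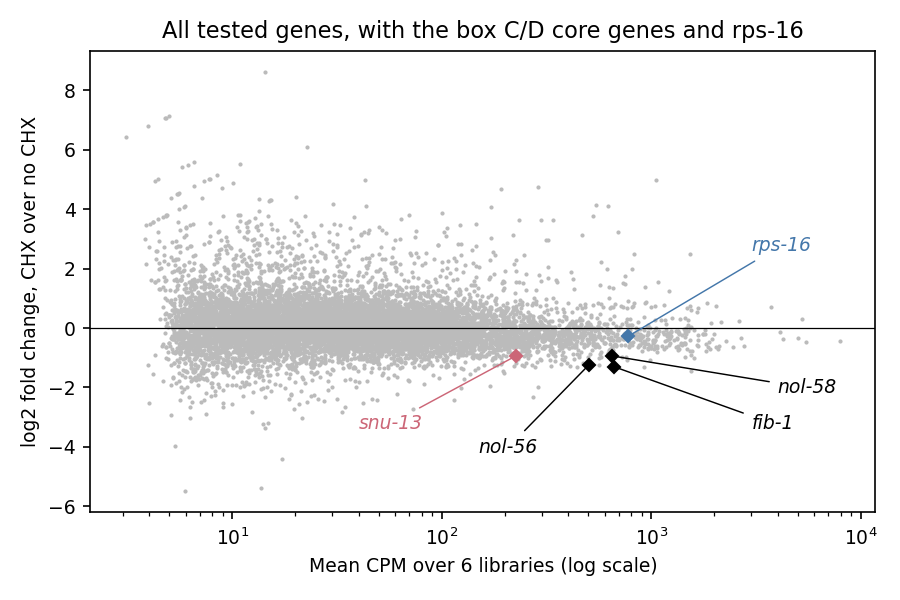
Log2 fold change (CHX over no CHX) of 10632 tested genes against mean CPM over 6 libraries on a log scale, 1 grey point per gene, with fib-1, nol-56 and nol-58 in black, snu-13 in red and rps-16 in blue. The black points, at -1.31, -1.23 and -0.94, lie low among the 2122 genes of at least 100 CPM. Of these, 19, 34 and 91 lie lower than fib-1, nol-56 and nol-58.

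In these libraries the measured falls of the 3 genes differed in size, but the tests below could not establish a difference. The ratio of nol-58 reads to fib-1 reads, which needs no scaling between libraries, was 0.926, 0.941 and 0.836 without CHX and 1.15, 1.27 and 1.08 with it, in replicates 1 to 3. The ranges did not overlap, and the library with fewer nol-58 than fib-1 reads was in each case a no CHX library. The mean log2 ratio differed by 0.37 between groups, with single pairs of libraries from 0.20 to 0.60 apart (exact two-sided permutation test, n = 3 each, p = 0.1, adjusted p = 0.15 over 3 pairs of genes).

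The ratio of nol-58 to nol-56 reads was 1.29, 1.18 and 1.15 without CHX and 1.5, 1.47 and 1.47 with it, in replicates 1 to 3. Here too the groups did not overlap. The difference in mean log2 ratio was 0.29, with pairs of libraries from 0.18 to 0.38 apart (exact two-sided permutation test, n = 3 each, p = 0.1, adjusted p = 0.15). With 3 libraries against 3, 0.1 is the smallest p this test can give, so neither shift could pass a threshold of 0.05. Reads shared between the related genes nol-58 and nol-56 could not be checked.

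The catalytic gene and the other scaffold gene stayed closer to each other. The ratio of nol-56 to fib-1 reads was 0.717, 0.798 and 0.727 without CHX and 0.764, 0.866 and 0.739 with it, in replicates 1 to 3, and the groups overlapped. The difference of 0.08 in mean log2 ratio had pairs of libraries from -0.11 to 0.27 apart (exact two-sided permutation test, n = 3 each, p = 0.5, adjusted p = 0.5). Read ratios between genes also carry the lengths of their coding sequences, so they compare groups and not the amounts of the proteins. The deposited lengths span each gene with its introns and were not used, so the coding lengths are not known here.

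**Figure D3:**
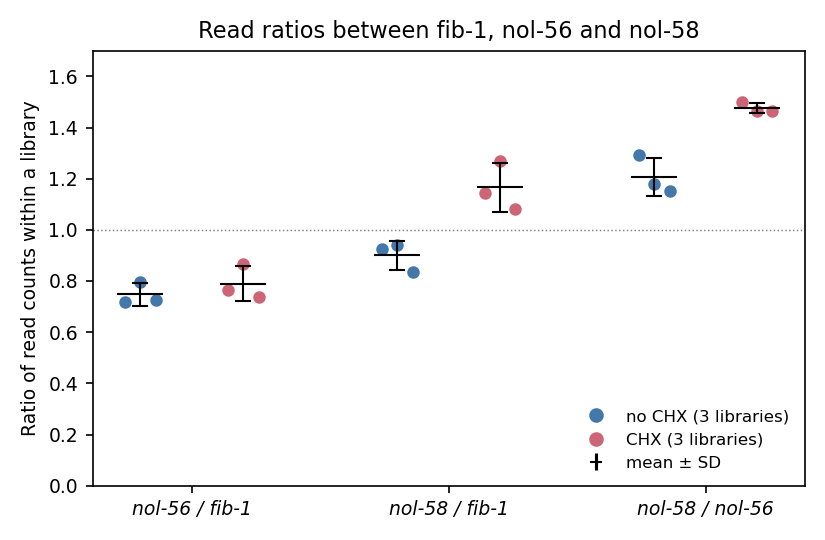
Ratio of read counts between pairs of genes within each library, for 3 no CHX libraries (blue) and 3 CHX libraries (red), with mean and SD in black and a dotted line at equal counts. The nol-58 to fib-1 ratio lies at 0.836 to 0.941 without CHX and at 1.08 to 1.27 with it, while the nol-56 to fib-1 ranges overlap.

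Box H/ACA snoRNPs are the sister particles that turn uridine into pseudouridine in rRNA. Of 4 listed core genes, 3 were tested, and all 3 fell. Of all tested genes 20.0% were called lower, and of those with a mean of at least 100 CPM, as these 3 have, 38.6%. dkc-1 (K01G5.5 in the table), the pseudouridine synthase, went from 568 ± 45.6 to 311 ± 15.1 CPM (SD, n = 3 each), which is -0.87 in log2 units (adjusted p = 1.7e-06, edgeR). The changes of garr-1 and of Y48A6B.3 were -0.65 and -0.75. nola-3 had no read in any library, and its bounds lie within those of another gene in the table. The 3 box C/D genes together had 2.42, 2.50 and 2.31 reads per read of the box H/ACA genes without CHX and 1.90, 1.80 and 1.90 with it, in replicates 1 to 3. That ratio did not overlap between groups, and its mean log2 value was 0.37 lower with CHX, given here as a description.

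Genes that assemble, modify or regulate the particles were uneven. Of 6 in this list, 4 fell and 0 rose (median log2 fold change -0.57), beside 20.0% lower and 22.2% higher over all tested genes. Among genes with a mean of at least 100 CPM, as all 6 have, the shares were 38.6% and 20.2%. nucl-1, a nucleolin gene, went from 1316 ± 72.5 to 529 ± 41.3 CPM (SD, n = 3 each). Its log2 change of -1.31 equalled that of fib-1 to 2 decimals (adjusted p = 8.6e-09, edgeR). prmt-1, whose human counterpart methylates arginines of fibrillarin, fell by 0.89 on the log2 scale, and dao-5, the gene of the nucleolar chaperone Nopp140, fell by 0.74. Of the AAA+ ATPases that help to assemble box C/D particles in yeast and human cells, ruvb-2 changed by -0.40 in log2 units (adjusted p = 0.0090, edgeR), which was no longer called without CHX replicate 1 (-0.31), and ruvb-1 had a value of -0.13 that did not pass (adjusted p = 0.38, edgeR).

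ncl-1 encodes a TRIM-NHL protein that in worms holds down fibrillarin and nucleolar size. It had 187, 184 and 199 CPM without CHX and 215, 207 and 189 CPM with it, in replicates 1 to 3. The groups overlapped, and the log2 difference of 0.10, with an SE of 0.10, did not pass (adjusted p = 0.45, edgeR).

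Other steps of ribosome production gave smaller median changes than the box C/D core. The counts below stand beside 20.0% lower and 22.2% higher over all tested genes. Of 7 other rRNA modification enzymes tested, 4 fell and 0 rose (median -0.61), led by the cytosine methyltransferase gene nol-2 (-0.85) and by emg-1 (-0.81). Of 7 RNA polymerase I genes, 6 fell and 0 rose (median -0.85). Among them were rpac-19 (-1.35), for a subunit shared with RNA polymerase III, and rpoa-12 (-0.97). Of 30 pre-rRNA processing and subunit assembly genes tested, 20 fell and 0 rose (median -0.52), with exos-4.1 (-1.13), of the RNA exosome, and nol-10 (-0.88) changed most among the called ones.

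Taking all these lists without the 3 genes, 38 of 54 tested members fell and 0 rose, with a median log2 fold change of -0.61. Over all tested genes 20.0% were called lower and 22.2% higher, and among those of at least 100 CPM 38.6% and 20.2%. At an unadjusted p under 0.05 edgeR gave 0 risers among the 54 as well, and DESeq2 and limma-voom called 0. Against a change of 1.5-fold in place of no change, 9 of the 54 were still called lower, while fib-1, nol-56 and nol-58 all were (edgeR adjusted p = 3.3e-06, 4.8e-06 and 0.0015). That stricter test called 484 of all 10632 tested genes lower. Of the 54, 2 had a lower log2 fold change than nol-56 and 4 a lower one than nol-58.

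Cytosolic ribosomal protein genes, which encode what the rRNA is built into, were taken by symbols of rpl- or rps- and a number. The 76 tested had a median of -0.35, and 49 fell while 0 rose. Of all tested genes 20.0% were called lower, and of those with a mean of at least 100 CPM 38.6%. For every 100 reads on the 78 such genes in the table there were 3.20, 3.20 and 3.17 reads on the 3 box C/D genes without CHX and 1.85, 1.76 and 1.79 with it, in replicates 1 to 3. The ratio was even among libraries of a group and did not overlap between groups. No tested gene of this list had a log2 fold change as low as that of nol-58.

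**Figure D4:**
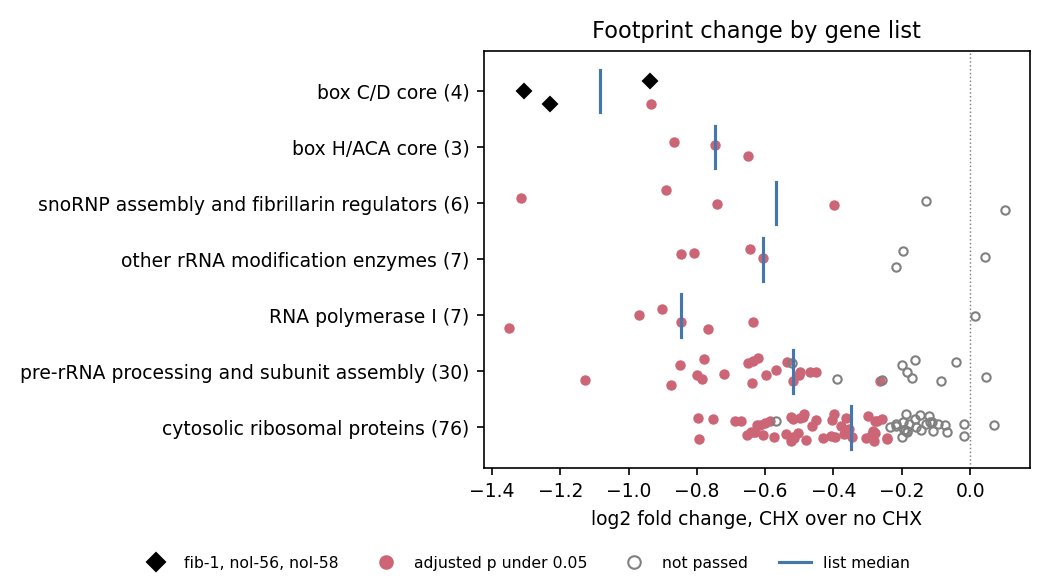
Log2 fold change (CHX over no CHX) of each tested gene in 7 lists, with the number of genes in brackets, fib-1, nol-56 and nol-58 as black diamonds, genes with edgeR adjusted p under 0.05 in red, the others as open circles, and list medians as blue lines. The box C/D core has a median of -1.08, against -0.75 for box H/ACA and -0.35 for cytosolic ribosomal proteins.

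The nearest gene to fib-1 on its strand is a ribosomal protein gene. rps-16 (chromosome V, 15000018 to 15000594, minus strand) lies downstream of fib-1 with 58 bases between them. Worm genes this close on 1 strand are often transcribed together as an operon, and whether these are is not given in the sources used here. rps-16 had 816, 824 and 904 CPM without CHX and 660.5, 723 and 711 CPM with it, in replicates 1 to 3. It fell by 0.28 in log2 units, with an SE of 0.089 (adjusted p = 0.018, edgeR), and the call ended without CHX replicate 1 (-0.24) and with the replicate number as a block (-0.28).

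The fib-1 to rps-16 read ratio was 1.20, 1.05 and 1.11 without CHX and 0.569, 0.495 and 0.586 with it, in replicates 1 to 3. The neighbours thus parted, with a mean ratio 2.04-fold lower with CHX (exact two-sided permutation test, n = 3 each, p = 0.1, the smallest possible). This pair was chosen after its values were seen. The tested genes next to nol-56 and nol-58, which are sluh-7, zip-4 and pqn-72, were not called lower. With 20.0% of all tested genes called lower, so few neighbours show no contrast with the members. nssp-62, downstream of nol-56, had 9 reads without CHX and 7 with it and was not tested. sluh-7, upstream of nol-56, had a log2 difference of 0.34 that did not pass (adjusted p = 0.076, edgeR). Downstream of nol-58, pqn-72 rose by 0.58 on the log2 scale (edgeR adjusted p = 0.015), and upstream of it zip-4 had a value of 0.18 (edgeR adjusted p = 0.51).

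nol-56 also holds snoRNA genes within its own bounds. In the RefSeq annotation of WBcel235, 4 snoRNA genes of 127 to 136 bases lie there, and 0 lie within fib-1, nol-58 or snu-13. No other tested gene holds 4 or more, so nol-56 is the only 1 of 166 tested genes with an annotated snoRNA that does. These 166 had a median log2 fold change of 0.08, with 36 lower and 41 higher, so that 21.7% were called lower, near the 20.0% of all genes. The annotation table does not say which box class each snoRNA belongs to.

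Genes whose 6 values ran most like the mean profile of the 3 were ranked by the distance between centred log2 CPM values, over 3922 genes with a mean of at least 50 CPM. nol-56 itself stood at rank 2, fib-1 at rank 11 and nol-58 at rank 32. As each of the 3 is part of the mean profile, high ranks were favoured from the start and are no evidence that they run together. The 6 nearest other genes with a symbol were hgo-1, for the tyrosine breakdown enzyme homogentisate oxidase (distance 0.107), ech-6, for an enoyl-CoA hydratase (0.151), rpb-6, for a subunit shared by RNA polymerases (0.182), gst-26, for a glutathione S-transferase (0.199), ddx-52, for a DEAD-box helicase (0.202), and oatr-1, for ornithine aminotransferase (0.205). Their log2 fold changes ran from -1.20 for gst-26 to -1.07 for ech-6. With 6 libraries in 2 groups, this likeness is mostly a likeness in the size of the group difference.

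Markers of several cell types also differed between the groups, to unequal degrees. Beside the counts below, 20.0% of all tested genes were called lower and 22.2% higher, and among those of at least 100 CPM 38.6% and 20.2%. The 12 germline markers together had 2675 to 2734 CPM without CHX and 1975 to 2259 CPM with it (6 fell and 2 rose). The 10 oocyte and eggshell markers had 261 to 446 CPM without CHX and 4077 to 4618 CPM with it (10 rose), and the 9 sperm markers found had 293 to 333 and 168 to 189 CPM (6 of 8 tested fell). The 9 intestinal markers found had 4112 to 4993 and 3214 to 4113 CPM (5 fell), and the 10 body wall muscle markers had 13961 to 15161 and 10619 to 11755 CPM (6 fell). The 10 epidermal markers had 2548 to 3052 and 1833 to 2914 CPM (2 fell, the same share as over all genes). The epidermal ranges overlapped between groups, and the intestinal ranges overlapped slightly. None of these markers was at 0 in all libraries, and their part in the fall of the 3 genes was not tested. Both groups carry the L4 label, and whether they were at the same point of that stage was not tested either.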

How the data were processed

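Ribosome footprints of 26 to 34 nucleotides, from ribosomes pelleted through 34% sucrose, were sequenced from 6 libraries, per the labels' protocols. The deposited table holds raw counts of reads per gene over coding sequence, per the file headers. The genome build WBcel235 and DESeq2 are named in the submitters' processing notes. The aligner, rRNA removal, molecular identifiers, strand and multiply mapped reads are, in the sources used here, not given, so reads shared between the related genes nol-56 and nol-58 could not be checked. No other gene of the table overlaps the bounds of the 3 genes.

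From these counts, genes were kept with filterByExpr (minimum count 10; 10632 genes), TMM factors were computed, and edgeR 4.0.16 in R 4.3.3 was the test (glmQLFit, robust, and glmQLFTest) with group as the only term. Adjusted p-values are Benjamini-Hochberg over all tested genes, and SE is the log2 fold change divided by the square root of F. The test was run on simulated data. Alternatives used limma 3.58.1 and DESeq2 1.42.0 among others. RefSeq matched 20079 of 20189 sequence names, and its symbols were used where the table had none.

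The 3 genes and all lists were chosen with earlier results of these data known. Named list genes were all those of lists with up to 6 genes found, otherwise the 2 largest called falls and rises. Of 66 pathway names, 58 were found under a symbol of the table or of RefSeq. The ribosomal protein list and the neighbours were added later. Counting intervals were not used, as the 3 genes had at least 498 reads in every library.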

Additional observations from a re-analysis of the deposited data

How the results depend on the processing

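fib-1, nol-56, nol-58 and snu-13 were lower with CHX and past the threshold under all 16 alternatives. Leaving out each library in turn gave log2 fold changes of -1.42 to -1.26 for fib-1, -1.30 to -1.19 for nol-56, -1.03 to -0.91 for nol-58 and -1.05 to -0.85 for snu-13. The other settings, which were median-of-ratios, upper-quartile and total scaling, no filter or a mean of 5 CPM, DESeq2, limma-voom, the block, leaving out the 100 genes with the most reads and the 1.5-fold test, gave -1.34 to -1.24, -1.26 to -1.17, -0.97 to -0.87 and -0.97 to -0.87. Only the 1.5-fold test moved the numbers of genes called over the whole table by more than 1.5 times, to 484 lower and 913 higher from 2123 and 2364, as a stricter null must. With the replicate number as a block the changes were -1.31, -1.23, -0.94 and -0.94. Same-numbered libraries did not deviate together over the tested genes (r = -0.113, -0.0803 and -0.0837). Counting noise in genes with few reads makes such values small, so they cannot decide whether the numbers pair the libraries. The nol-58 to fib-1, nol-58 to nol-56 and nol-56 to fib-1 log2 differences kept their sign without each library (0.31 to 0.42, 0.26 to 0.34 and 0.01 to 0.13). Their tests cannot pass at this size and say nothing about stability.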

Other observations

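The list of pre-rRNA processing genes holds 7 tested exos genes, which encode parts of the RNA exosome, a nuclease complex that trims pre-rRNA. Of these, exos-4.1 and exos-7 fell (log2 fold changes -1.13 and -0.65), and exos-1, exos-2, exos-3, exos-8 and exos-9 had values of 0.05, -0.39, -0.52, -0.16 and -0.09 that did not pass. The related gene exos-4.2, which is not on the list, had a value of -0.31 and did not pass. These genes were singled out after their values were seen, with no test of the group, and 20.0% of all tested genes were called lower. The late small-subunit kinases riok-1 and riok-2 had values of -0.19 and -0.17 and did not pass. Nor did tif-1A, the initiation factor of RNA polymerase I, at 0.02, while the polymerase subunits rpoa-1 and rpoa-2 fell by 0.85 and 0.90 on the log2 scale. Next to snu-13, the gene lact-3, which lies 185 bases downstream on the same strand, rose by 1.22 on the log2 scale (edgeR adjusted p = 4.4e-06).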
